A study of Mus musculus with 135 samples.

Results

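The change that repeated social defeat (RSD) together with minocycline made in sickle (SS) mice was set against the change that the same pair of exposures made in control (AA) mice, in the cerebral cortex and in the hippocampus. For each gene the quantity is an interaction, (SS + RSD + minocycline minus SS) minus (AA + RSD + minocycline minus AA), on a log2 scale. A value of 0 means that both genotypes moved alike, and a positive value means that the level moved further up, or less far down, in SS than in AA mice. The libraries were those of mice whose titles carry numbers in 2 ranges, from 5645 to 5900 and from 9810 to 9910. They came to 81 of the 135 libraries of the series, after 1 AA + RSD + minocycline library per tissue was left out because its counts were identical to those of a mouse labelled SS + minocycline. The cortex gave 41 libraries, from 8 AA, 15 AA + RSD + minocycline, 6 SS and 12 SS + RSD + minocycline mice, and the hippocampus gave 40, from 8, 15, 5 and 12 mice.

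All were adult male Townes mice, a line whose own globin genes were replaced by human ones. SS mice make sickle hemoglobin from them and AA mice normal adult hemoglobin. In RSD an aggressive male intruder is put into the home cage of a settled group on consecutive evenings. Minocycline, a tetracycline antibiotic that dampens microglial activation, was given in the drinking water from the day before RSD until its end. Every mouse, controls included, had gone through behavioural tests before its brain was taken. The tests began the day after the last RSD session and included foot shocks for fear conditioning. Brains were taken after the tests had ended, so the levels are those found days after RSD and minocycline had stopped. No mouse in these number ranges had RSD without minocycline and no AA mouse had minocycline without RSD, so the effects of the 2 exposures cannot be told apart here. Each library is 1 mouse, and it holds the polyadenylated RNA of a whole piece of tissue, in which fewer cells of a type and less RNA per cell cannot be told apart.

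Sickle cell disease brings chronic anaemia, hemolysis, vascular damage and inflammation, and free heme and repeated vessel occlusion are known to act on the brain's endothelium and microglia. Social defeat raises glucocorticoids and primes microglia, while minocycline acts on those same cells. An interaction asks whether mice with sickle disease answer the combined exposure differently from mice without it.

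In neither tissue did a gene pass the test. In the cortex 18860 genes were tested and 0 were called at an adjusted p under 0.05 by the quasi-likelihood test of edgeR (0%), the smallest adjusted p being 0.29. At an unadjusted p under 0.05 there were 603 genes (3.2%), of which 496 (2.63%) had a positive interaction and 107 (0.567%) a negative one. The Wald test of DESeq2 called 1 gene in the cortex and the likelihood-ratio test of edgeR called 5. In the hippocampus 19487 genes were tested and 0 were called (0%), with a smallest adjusted p of 0.412. There 596 genes (3.06%) had an unadjusted p under 0.05, 387 of them (1.99%) positive and 209 (1.07%) negative, while DESeq2 called 1 gene and the likelihood-ratio test 0.

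The data bound how large an undetected interaction may be. The 95% confidence interval of the interaction reached a median of 0.41 on the log2 scale to each side in the cortex and 0.44 in the hippocampus. For 14358 cortex genes (76.1%) the whole interval lay between -1 and 1, so that a genotype difference in the response of more than 2-fold lay outside it. In the hippocampus the same held for 14377 genes (73.8%). A narrower bound of 0.5 to each side held for 8633 genes (45.8%) and 8250 genes (42.3%).

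Some libraries stood apart in where their reads fell, and these kinds of library were not spread evenly over the groups. The cortex libraries held between 16295000 and 107713000 reads on genes and the hippocampus libraries between 19323400 and 68731000. In the cortex 12 libraries had only 4.35% to 6.09% of reads outside annotated genes, against 8.63% to 13.9% in the 27 most common libraries, and none of the 12 was an SS control. Another 2 cortex libraries, of the AA mice 9838 and 5845, had 24.5% and 25.9% of reads unmapped. In the hippocampus 11 libraries, again without an SS control, had few reads outside genes, and 4 libraries, of the AA mice 9838 and 5845 and the SS mice 9822 and 9848, had 26.2% to 41.9% of reads unmapped. All the libraries with many unmapped reads were thus AA or SS controls, and the values that rest on them most are given with and without them.

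The label check used Alas2, the erythroid enzyme that opens heme synthesis, whose RNA is carried into brain samples by young red cells. Its cortex level in CPM, which are counts scaled to the library's size, was 53.6 to 121 in the SS mice and 54.9 to 127 in the SS + RSD + minocycline mice. In the AA mice the median was 3.80 CPM, but the library labelled 5844 reached 99.7, and among the AA + RSD + minocycline mice with a median of 5.09 CPM the library labelled 5853 reached 51.3. The hippocampus libraries with the same labels showed the same, at 56.3 and 44.6 CPM. By Alas2 these 2 mice thus went against their AA label in both tissues. They move the interaction of Alas2, which was 0.73 in the cortex (interval -0.88 to 2.33) with them and -0.60 without them. Slc4a1, the anion exchanger of the red cell membrane, had interactions of 1.34 and 0.55 in cortex and hippocampus, which turned to -0.17 and -0.43 without both libraries and to -0.99 and -1.24 without 5844 alone. The 6 mouse globin genes tested in each tissue had medians of 0.20 and 0.20. In the cortex the library labelled 5853 lay just under the lowest SS library for Alas2 and for Slc4a1 (4.11 against 4.42 CPM). Among the globins its cortex Hba-a1 (0.52 CPM) lay within the SS range of 0.25 to 1.94. Its cortex Hba-a2, at most 0.41 CPM, lay under the SS range of 0.50 to 1.41. Leaving out 5844 and 5853 gave 0 called genes for the interaction in either tissue, with 592 cortex and 531 hippocampus genes at an unadjusted p under 0.05.

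**Figure D1:**
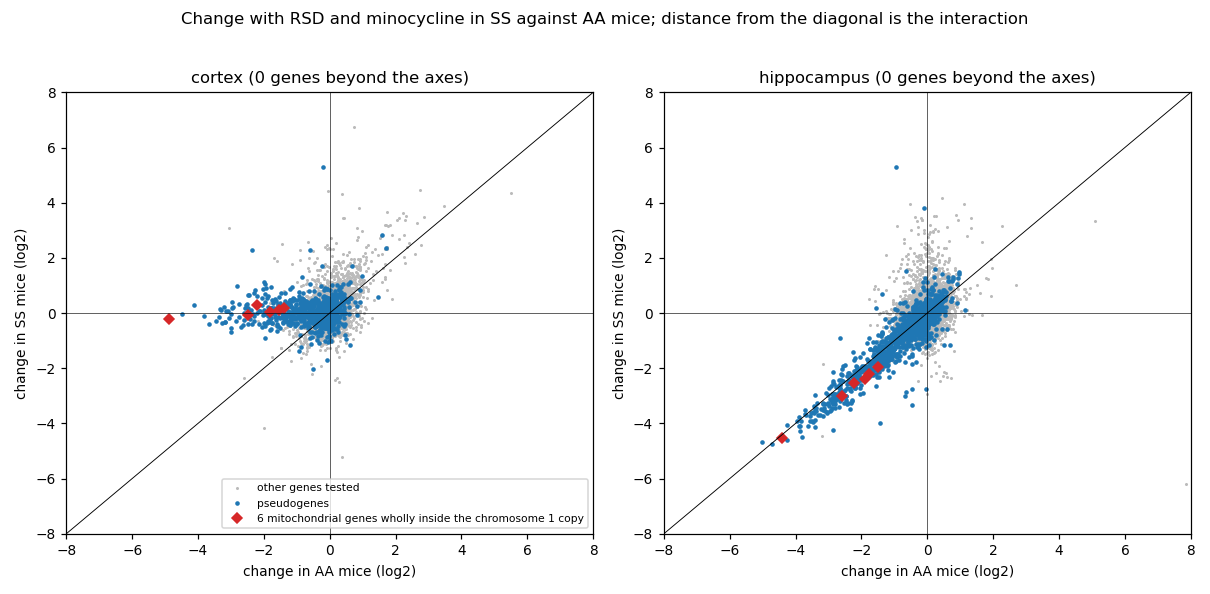
Change with RSD and minocycline in SS mice against the same change in AA mice, both on the log2 scale, for every gene tested in the cortex (left) and the hippocampus (right); the distance from the diagonal line is the interaction, blue points are pseudogenes and red diamonds the 6 mitochondrial genes that lie wholly inside a nuclear copy on chromosome 1. Pseudogenes and diamonds extend to negative AA changes in the cortex and to negative changes in both genotypes in the hippocampus, and 0 genes were called for the interaction in either tissue.

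The changes within each genotype, which make up the interaction, were few. In SS mice 1 cortex gene was called (0.0053%), Ttr, which was lower in SS + RSD + minocycline than in SS mice. The other tests differed here, since DESeq2 called 15 genes, 11 of them higher, Chat and Tac1 among them, and the likelihood-ratio test called 5, all lower. In AA mice 175 cortex genes were called (0.928%), 174 of them lower with RSD and minocycline (0.923%), and 156 of the 175 were pseudogenes and 6 were mitochondrial genes. Without the libraries of mice 9838 and 5845 the AA change had 0 called genes by the same test, with 438 at an unadjusted p under 0.05. The same libraries enter the interaction. Of its 496 positive genes at an unadjusted p under 0.05, 214 were pseudogenes (43.1%), although pseudogenes made up 4.57% of all genes tested, and without the 2 libraries the genes of either sign at that p numbered 287 of 18573.

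The mitochondrially encoded messenger RNAs, which code for subunits of the respiratory chain and of ATP synthase, show this most plainly. All 13 were tested in the cortex, and their median interaction was 0.35, against 0.01 over all genes. At an unadjusted p under 0.05 there were 6, all positive, against the 2.63% of all genes that were positive at that p. The 6 were mt-Co2, mt-Atp8, mt-Atp6, mt-Co3, mt-Nd3 and mt-Nd4l, and they were the 6 mitochondrial genes called lower in AA mice. They have low counts beside the others: mt-Co2 had a mean of 22.8 CPM in the SS mice, whereas mt-Co1, the core subunit of cytochrome c oxidase from the same mitochondrial genome, had 15699. The interaction of mt-Co1 was 0.08 (SE 0.24).

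The mouse nuclear genome holds near-identical copies of mitochondrial DNA, and the counts deposited leave out reads with more than 1 place of origin. The 6 genes are the ones that lie wholly inside the copy at chr1:24650616-24655269 on the minus strand of GRCm39, which matches chrM:6390-11042 with 99.9% identity over 4654 bases. The start of mt-Atp8, a small ATP synthase subunit, is shown first because no base in it tells the copies apart, and then the start of mt-Co1, which does differ from its copy on chromosome 2, with the differing bases in capitals.
mt-Atp8 (chrM:7766-7825): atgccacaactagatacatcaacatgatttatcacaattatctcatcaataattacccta
mt-Atp8 nuclear copy (chr1:24653834-24653893, minus strand): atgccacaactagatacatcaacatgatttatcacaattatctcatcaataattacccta
mt-Co1 (chrM:5328-5387): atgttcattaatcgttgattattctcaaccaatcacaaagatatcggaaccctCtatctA
mt-Co1 nuclear copy (chr2:22479600-22479659, minus strand): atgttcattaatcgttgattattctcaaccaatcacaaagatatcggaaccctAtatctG
Over the whole gene, 204 of 204 bases of mt-Atp8 and 347 of 348 of mt-Nd3 were the same in the chromosome 1 copy. For mt-Co1, 1508 of 1545 bases were the same in the chromosome 2 copy, and a read over a differing base can be placed. The chromosome 1 copy also holds a part of mt-Co1, with 482 of 483 bases the same, and of mt-Nd4, with 876 of 876. How far these matches set the counts was not tested.

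In the cortex mt-Atp8 was at 39.95 CPM in mouse 9838 and 43.7 in mouse 5845, and at 0.13 to 1.51 in the other 6 AA mice. The AA + RSD + minocycline mice ranged from 0.051 to 0.94 CPM, the SS mice from 0.55 to 1.55 and the SS + RSD + minocycline mice from 0.19 to 1.66. The 2 AA libraries thus stood far above every other library, and the remaining AA libraries overlapped all groups. The interaction of mt-Atp8 was 4.67 (SE 1.07, adjusted p = 0.302) with them and 1.03 without them. For mt-Nd3, a complex I subunit, the interaction was 2.50 (SE 0.63, adjusted p = 0.458), and for mt-Nd4l, another, it was 2.43 (SE 0.67, adjusted p = 0.478). Without the 2 libraries these were 0.56 and 0.14, and the median over the 13 genes was 0.19 with 0 at an unadjusted p under 0.05. Both were at 28.6 CPM or more in those 2 AA libraries and at most 5.26 CPM in every AA + RSD + minocycline library. In the hippocampus, where the many-unmapped libraries fall on 2 AA and on 2 SS controls, the interaction of mt-Atp8 was -0.13 (SE 1.29), and the median over the 13 genes was -0.01 with 0 at an unadjusted p under 0.05. There mt-Atp8 stood at 53.2 and 59.4 CPM in the SS mice 9822 and 9848 and at 1.4, 0.553 and 1.12 in the SS mice 9824, 9903 and 5785. What sets these libraries apart was not tested.

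**Figure D2:**
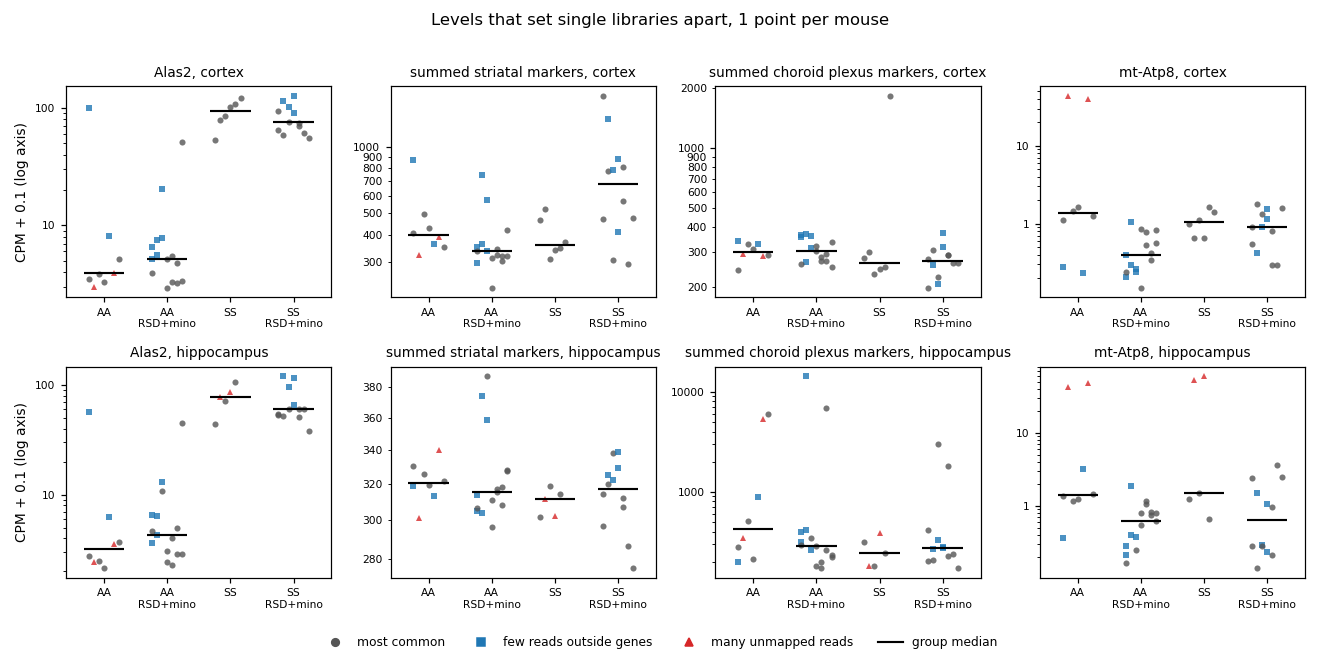
CPM of Alas2, summed striatal and choroid plexus markers and mt-Atp8 (log axis, with 0.1 added) by group in the cortex (top) and hippocampus (bottom), with 1 point per mouse, a line at the group median and colour and shape for the kind of library. The 12 SS + RSD + minocycline cortex libraries reach 1702 CPM for the striatal list against at most 520 in the 6 SS libraries, and SS mouse 9903 stands alone at 1834 CPM for the choroid plexus list.

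Of the 43 gene lists, striatal markers had the most members at an unadjusted p under 0.05 in the cortex. These genes define the medium spiny neurons of the striatum, which lies under the cortex, and they are low in cortical tissue. All 16 of the list were tested, all 16 had a positive interaction with a median of 1.56, and 15 had an unadjusted p under 0.05, against the 2.63% of all genes that were positive at that p, while 0 passed the adjusted test. The median change was 1.53 in SS mice and -0.31 in AA mice. The median over all genes was 0.01 for each of these changes.

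Rgs9, which speeds the shut-off of G-protein signals in these neurons and lies at chr11:109116158-109189025 (GRCm39), was at 14.2 to 33.8 CPM in the SS mice with a median of 17.4. In the SS + RSD + minocycline mice it was at 13.9 to 150 CPM with a median of 35.6. The AA mice ranged from 13 to 46.9 CPM (median 20.1) and the AA + RSD + minocycline mice from 9.90 to 27.3 (median 16). All 4 groups overlapped, and the spread was widest in the SS + RSD + minocycline mice, at 46.2 ± 37.4 CPM (SD, n = 12) against 20.7 ± 7.37 (SD, n = 6) in the SS mice. The interaction was 1.52 (SE 0.44, adjusted p = 0.506).

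Adora2a, an adenosine receptor of these neurons, had an interaction of 2.85 (SE 0.84, adjusted p = 0.506). It was at 2.71 to 10.5 CPM in the SS mice and at 1.61 to 55.4 CPM in the SS + RSD + minocycline mice, with medians of 3.22 and 11. Pde10a, a phosphodiesterase of the same neurons, had an interaction of 1.10 (SE 0.32) and Tac1, the precursor of substance P, one of 1.42 (SE 0.47). The dopamine receptors Drd1 and Drd2 had 1.58 (SE 0.47) and 3.18 (SE 0.95). Foxp1, a transcription factor that cortical neurons also use widely, was the member outside the 15, at 0.12 (SE 0.19).

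The striatal level differed from mouse to mouse. Its sum over the list was 295 to 1702 CPM in the SS + RSD + minocycline mice with a median of 675, the highest being mouse 9813 and the next mouse 9890 at 1330. The SS mice ranged from 311 to 520 CPM (median 360), the AA mice from 323 to 870 (median 398) and the AA + RSD + minocycline mice from 230 to 742 (median 336). The 870 CPM belong to the library labelled 5844, and without it the median interaction of the list was 1.27 with 13 genes at an unadjusted p under 0.05. Among mice numbered 5645 to 5900 the median interaction of the list was 0.88 with 0 of 16 genes at an unadjusted p under 0.05, and among mice numbered 9810 to 9910 it was 2.15 with 14. In the hippocampus the sum was 275 to 387 CPM in every library, 15 of the markers were tested, and their median interaction was 0.02 with 0 at an unadjusted p under 0.05. With the summed striatal level as a term, the cortex model had 528 genes at an unadjusted p under 0.05 for the change in SS mice, against 1644 without the term, and 1831 against 1077 for the change in AA mice. The interaction still had 0 called genes, with 681 at that p. For Cd4, the T-cell co-receptor and no member of the list, it was 2.13 without the term and 0.14 with it, and those of Alas2 and Slc4a1 turned to -0.93 and -0.44.

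Chat, the enzyme that makes acetylcholine, and a gene of cholinergic neurons in cortex and striatum, was also among the cortex genes named by rank, with an interaction of 3.23 (SE 0.78, adjusted p = 0.43). It was at 0.31 to 1.03 CPM in the SS mice and at 0.14 to 9.98 CPM in the SS + RSD + minocycline mice, with medians of 0.46 and 1.46. The AA mice ranged from 0.36 to 1.94 CPM and the AA + RSD + minocycline mice from 0.17 to 1.69. Only SS + RSD + minocycline libraries exceeded 2 CPM, and the lowest of that group lay under every SS library. Foxp2, a transcription factor of deep-layer cortical and of striatal neurons, had an interaction of 0.88 (SE 0.25, adjusted p = 0.506), and Gprin3, a regulator of neurite growth, one of 1.11 (SE 0.30, adjusted p = 0.458). Gprin3 was at 4.19 to 9.34 CPM in the SS and at 6.24 to 22.9 CPM in the SS + RSD + minocycline mice. With the striatal level as a term the interactions of Chat, Foxp2 and Gprin3 were 1.37, 0.39 and 0.86.

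The other 2 cortex genes named by rank are broadly expressed regulators. Rbm15, part of the complex that writes N6-methyladenosine on RNA, had an interaction of 0.59 (SE 0.17, adjusted p = 0.506). Its median was 10.2 CPM in AA, 7.99 in AA + RSD + minocycline, 7.94 in SS and 9.28 in SS + RSD + minocycline mice, so that the AA controls were the highest and the SS controls the lowest of the 4 medians. Rps6ka5, a kinase that phosphorylates histone H3 and CREB, had an interaction of 0.37 (SE 0.11, adjusted p = 0.506), with medians of 26.4, 24.2, 23.5 and 26.2 CPM in the same order. For both genes all 4 groups overlapped. The highest AA library was mouse 9838 for Rbm15 and mouse 5845 for Rps6ka5, both with many unmapped reads. Without the libraries with many unmapped reads the interactions were 0.42 and 0.29.

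**Figure D3:**
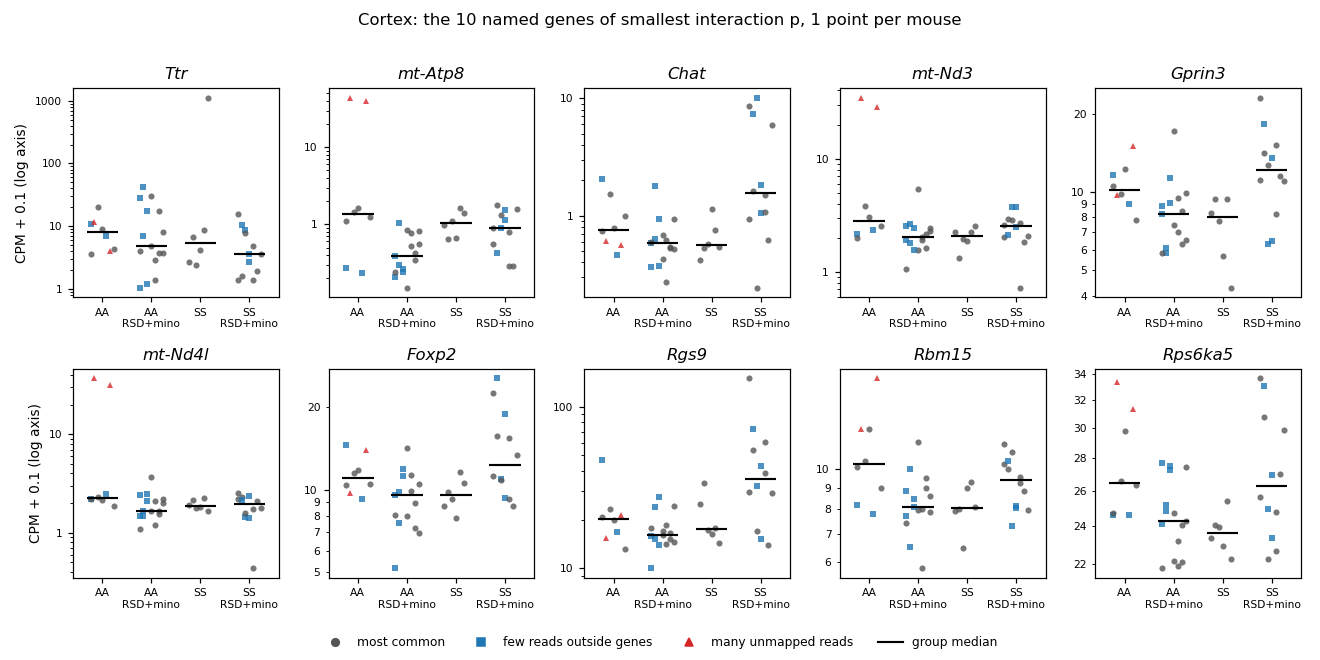
CPM (log axis, with 0.1 added) of the cortex genes named by rank, with 1 point per mouse, a line at each group's median and colour and shape for the kind of library. The groups overlap for each gene apart from single libraries, such as SS mouse 9903 for Ttr and AA mice 9838 and 5845 for the 3 mitochondrial genes.

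Choroid plexus markers had the opposite sign in the cortex, and 1 library decided it. The choroid plexus is the epithelium of the ventricles that secretes cerebrospinal fluid. Of its markers 15 were tested, none had a positive interaction, and the median was -1.29. At an unadjusted p under 0.05 there were 5, against the 0.567% of all genes that were negative at that p. Ttr, the thyroid hormone carrier that the choroid plexus makes in large amounts, had the smallest p of them, with an interaction of -5.58 (SE 1.25, adjusted p = 0.29). It was at 1117 CPM in SS mouse 9903 and at 2.26 to 8.52 CPM in the other 5 SS mice. The SS + RSD + minocycline mice ranged from 1.25 to 15.3 CPM, the AA mice from 3.55 to 20.1 and the AA + RSD + minocycline mice from 0.94 to 41.4. Without mouse 9903 all groups overlapped, the interaction of Ttr was -0.27, that of Kl, the anti-ageing protein klotho, turned from -1.29 to 0.05, and the median of the list turned to 0.16 with 0 members at an unadjusted p under 0.05. The change in SS mice then had no call by edgeR's test (0 genes), and an unadjusted p under 0.05 was found for 1087 genes. In the hippocampus the 18 choroid plexus markers tested had a median of 1.53 with 0 at an unadjusted p under 0.05. Their median change was 1.17 in SS mice and -0.17 in AA mice. The sum of the list was 180 to 383 CPM in the SS mice. It reached 14264 CPM in AA + RSD + minocycline mouse 5646, a library that lowers the interaction rather than raising it.

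Glucocorticoid targets are the transcripts by which a stress hormone response is usually read, here days after RSD and after tests with foot shocks. In the cortex 24 genes of receptors and targets were tested, with a median interaction of 0.33 and 0 called. At an unadjusted p under 0.05 there were 2, both positive, against the 2.63% of all genes that were positive at that p. Sgk1, a kinase induced by corticosterone, had an interaction of 0.84 (SE 0.33), with medians of 88.6 CPM in the SS and 86.1 in the SS + RSD + minocycline mice. The medians were 99.2 CPM in the AA and 71.4 in the AA + RSD + minocycline mice, so by median it was the AA mice that differed. The means differed in both genotypes. They were 87.1 CPM in SS and 111 in SS + RSD + minocycline mice, and 107 in AA and 76.6 in AA + RSD + minocycline mice. The highest libraries were the SS + RSD + minocycline mice 5800 at 207 CPM and 5797 at 200 CPM. The highest AA library was mouse 9838 at 177 CPM, which had many unmapped reads. Without the libraries with many unmapped reads the interaction of Sgk1 was 0.65. Ddit4, an inhibitor of mTORC1 induced by glucocorticoids and hypoxia, had an interaction of 0.66 (SE 0.24), with 24.8 to 39.3 CPM in SS and 24.4 to 76.0 CPM in SS + RSD + minocycline mice. In the hippocampus the list's median was 0.19, with 1 of 24 at an unadjusted p under 0.05, positive, against 1.99% of all genes. Sgk1 had an interaction of 0.70 (SE 0.35) there.

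Microglial and inflammatory genes, which minocycline is used to act on, had positive median interactions in the cortex and medians on both sides of 0 in the hippocampus. In the cortex the median interaction was 0.09 for 15 homeostatic microglia genes, 0.19 for 14 genes of activated microglia, 0.11 for 24 interferon-stimulated genes, 0.09 for 18 cytokines, chemokines and their receptors and 0.11 for 17 complement genes. Of these genes 13, 11, 16, 10 and 12 were positive. At an unadjusted p under 0.05 there were 0, 1, 0, 0 and 1 genes, against 3.2% of all genes. The median changes of the lists were 0.28, 0.42, 0.31, 0.16 and 0.22 in SS and 0.15, 0.14, 0.20, 0.02 and 0.00 in AA cortex. Over all genes these were 0.01 and 0.01, and 0 genes of the lists were called in either genotype. The hippocampal median interactions were -0.01, -0.01, -0.09, 0.11 and -0.04, with 0, 1, 0, 0 and 1 genes at that p, against 3.06% of all genes. Ch25h, which makes 25-hydroxycholesterol in activated microglia, had the smallest p of the activated list in both tissues, with interactions of 1.34 (SE 0.47) in the cortex and 0.81 (SE 0.37) in the hippocampus. It is a rare transcript here, at 0.16 to 0.95 CPM in SS and 0.23 to 2.49 CPM in SS + RSD + minocycline cortex. C3, the central complement protein, had 1.05 (SE 0.45) in the cortex with 0.82 CPM in its highest library, and C1ra, a protease of the classical pathway, had -0.58 (SE 0.26) in the hippocampus. Cd4 had an interaction of 2.13 (SE 0.64) in the cortex, with 0.57 to 3.28 CPM in the SS and 0.90 to 8.14 CPM in the SS + RSD + minocycline mice, and the highest library of the latter was mouse 9813, which was also the highest for the striatal list.

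**Figure D4:**
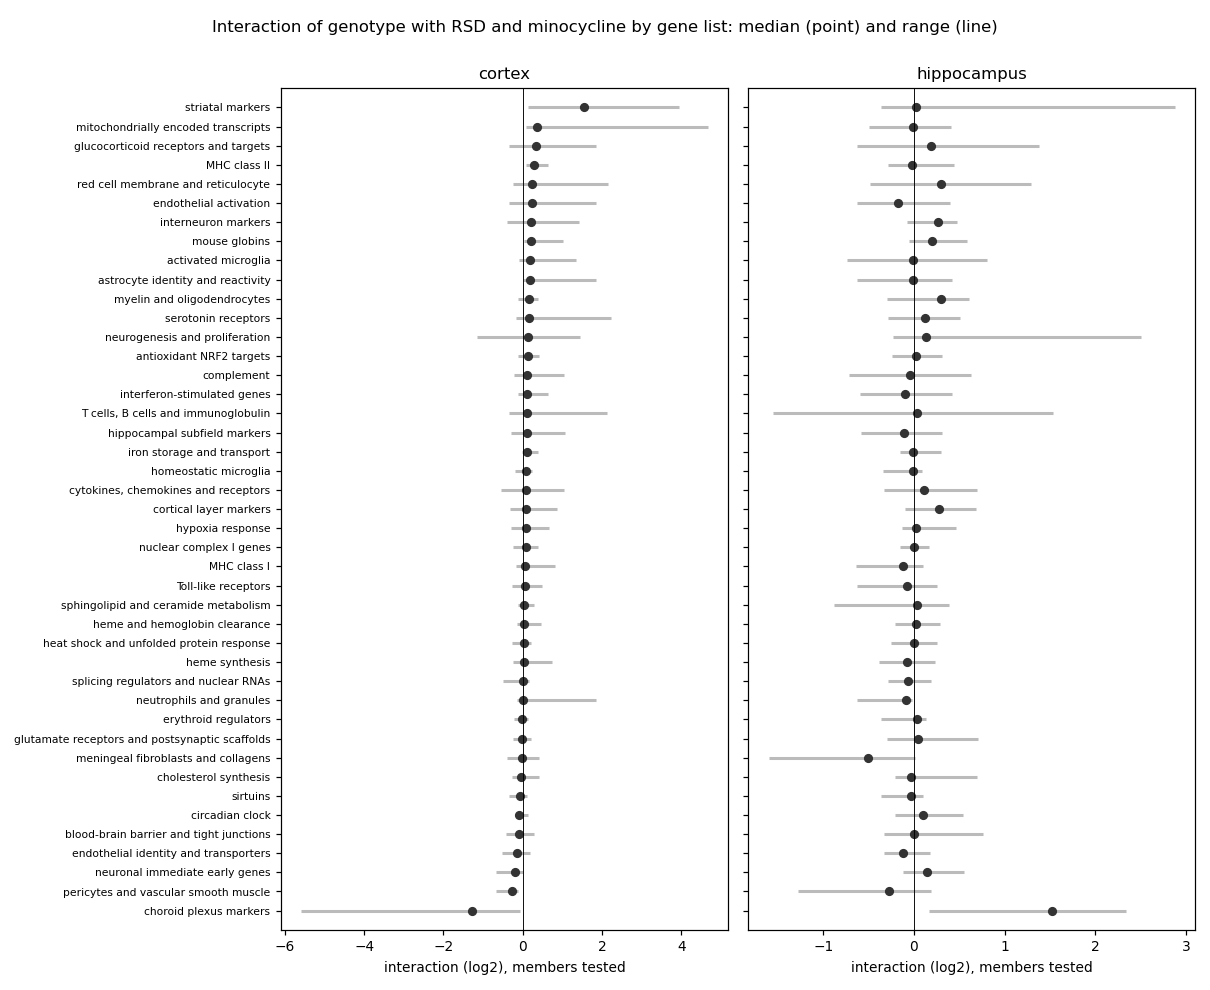
Median interaction of each gene list on the log2 scale in the cortex and the hippocampus, with the range from the lowest to the highest member. The striatal list (1.56) and the choroid plexus list (-1.29) stand farthest from 0 in the cortex, and the choroid plexus list (1.53) and the meningeal list (-0.51) in the hippocampus.

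The blood-brain barrier and the vessel wall are where sickle disease is thought to meet the brain. For 20 barrier and tight junction genes the median interaction was -0.10 in the cortex, with 0 at an unadjusted p under 0.05, and 0.00 in the hippocampus, with 1 positive and 1 negative. For 14 pericyte and vascular smooth muscle genes it was -0.26 in the cortex, with 1 negative, against 0.567% of all genes. In the hippocampus it was -0.28 with 3 negative, against 1.07% of all genes. Leaving out each SS mouse in turn gave 3 to 5 members at that p. With the summed level of the meningeal markers described below as a term of the model, the hippocampal median was -0.19 with 2 at that p. Higd1b, a pericyte gene, had -0.68 (SE 0.23) in the cortex, where it was at 3.40 to 4.53 CPM in the SS, 1.32 to 3.72 in the SS + RSD + minocycline, 1.75 to 3.21 in the AA and 1.4 to 3.47 in the AA + RSD + minocycline mice. The SS controls were thus the high group, and they overlapped the SS + RSD + minocycline mice only at their lowest library. In the hippocampus Vtn, the vitronectin that pericytes secrete, had -0.47 (SE 0.16), Kcnj8, the pore of a vascular potassium channel, had -0.45 (SE 0.20), and Cnn1, a smooth muscle calponin, had -1.27 (SE 0.42). With the meningeal level as a term these were -0.32, -0.46 and -0.71. Cnn1 is a rare transcript here, at 0.16 to 1.03 CPM in the SS mice, lowest in mouse 9822 and highest in mouse 9824.

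Sphingolipid genes, sirtuins and serotonin receptors had small median interactions. In the cortex the median was 0.04 for 35 sphingolipid and ceramide genes with 0 at an unadjusted p under 0.05, -0.07 for 7 sirtuins with 0, and 0.16 for 12 serotonin receptors with 1. That 1 receptor was Htr1f, at 0.61 (SE 0.28). The hippocampal medians were 0.03 for the sphingolipid genes with 1 negative, -0.03 for the sirtuins with 0 and 0.12 for 11 serotonin receptors with 0. For 22 neuronal immediate early genes, which rise within minutes of firing, the cortex median was -0.19, with 1 positive and 0 at an unadjusted p under 0.05. In the hippocampus it was 0.14, with 18 positive. There 2 were at that p, both positive, against 1.99% of all genes. The 2 were Egr1 at 0.55 (SE 0.20) and Arc at 0.55 (SE 0.24). The median change of the list was -0.44 in SS and -0.12 in AA cortex, and 0.16 and -0.04 in the hippocampus. Hippocampal Arc was at 63.7 to 104 CPM in the SS and 62.9 to 135 in the SS + RSD + minocycline mice, with medians of 64.97 and 101. The groups overlapped, and the SS mice other than 9848 and 5785 lay under all but the lowest SS + RSD + minocycline library.

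In the hippocampus the changes within each genotype were again led by pseudogenes. In SS mice 155 genes were called (0.795%), 148 of them lower with RSD and minocycline (0.759%), and 129 of the 155 were pseudogenes. In AA mice 175 genes were called (0.898%), 173 of them lower (0.888%), and 163 were pseudogenes. The 2 lists shared 114 genes, which is 73.5% of the SS list and 65.1% of the AA list, and the comparisons share no library. Without the 4 libraries with many unmapped reads the AA change had 0 calls by edgeR's test, although 873 genes had an unadjusted p under 0.05, and the SS change 5, all lower, Il13ra2, Tfpi, Ranbp3l, Slc6a13 and Mrgprf. Without SS mouse 9822 alone, or 9848 alone, the SS change had 0 calls, so that Hcar1 and Nppc lost theirs, although 1427 and 1434 genes had an unadjusted p under 0.05, while leaving out any other SS mouse gave 700 to 768. With the number range of the mice as a term of the model, where 4 SS controls fall in 1 range and 1 in the other, the SS change again had 0 calls (smallest adjusted p = 0.0581 by edgeR's test, 1732 genes at an unadjusted p under 0.05) and the AA change had 119.

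The smallest hippocampal p belonged to a long noncoding RNA without a symbol, ENSMUSG00000117824.2, which was present in some mice and near 0 in the rest. It was at 2.49 to 3.35 CPM in 4 of the 15 AA + RSD + minocycline mice and at 2.91 CPM in SS mouse 9903, and every other library held at most 3 reads of it. All 8 AA libraries had 0 reads, so no fold is given. The named hippocampal genes of smallest p fell into those lower in SS mice with RSD and minocycline and those higher in them. Hcar1, the lactate receptor at chr5:124014799-124018083, was at 3.06, 2.41, 3.39, 2.44 and 1.57 CPM in the SS mice 9822, 9848, 9824, 9903 and 5785. The SS + RSD + minocycline mice ranged from 0.43 to 2.43 CPM with a median of 0.71, the AA mice from 0.88 to 3.46 (median 2.80) and the AA + RSD + minocycline mice from 0.91 to 4.43 (median 2.62). All but the 2 highest SS + RSD + minocycline libraries lay under every SS library. The interaction was -1.64 (SE 0.42, adjusted p = 1.00), and the change in SS mice alone was -1.41 (adjusted p = 0.0208), a call that was lost with the number range as a term.

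Tfpi, the inhibitor that holds back tissue factor at the start of clotting, lies at chr2:84263195-84307164. It was at 4.04, 3.59, 6.76, 4.08 and 6.02 CPM in the same SS mice and at 2.98 to 3.96 CPM in the SS + RSD + minocycline mice. The AA mice (2.92 to 4.06) and the AA + RSD + minocycline mice (2.81 to 4.49) covered the same range as the latter, so the SS controls were the high group. The interaction was -0.59 (SE 0.15, adjusted p = 1.00), and it was -0.76 without the libraries with many unmapped reads. Ranbp3l was at 5.39, 7.05, 13.2, 7.99 and 11.4 CPM in the SS mice, at 4.01 to 6.82 in the SS + RSD + minocycline mice and at 4.55 to 9.68 in the AA mice, with an interaction of -0.79 (SE 0.25, adjusted p = 1.00).

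Markers of the meninges, the membranes round the brain, had the same sign. Of 21 genes of meningeal fibroblasts and collagens, 20 had a negative interaction in the hippocampus, the median was -0.51, and 6 had an unadjusted p under 0.05, against the 1.07% of all genes that were negative at that p, with 0 called. Fmod, the collagen-binding fibromodulin, was at 2.67, 3.22, 37, 10.7 and 17.1 CPM in the SS mice and at 2.19 to 8.95 in the SS + RSD + minocycline mice, with an interaction of -1.60 (SE 0.61). Col3a1, a fibrillar collagen, had -1.26 (SE 0.47) and Slc6a13, a GABA transporter of meningeal cells, had -1.05 (SE 0.40). The SS mice 9824, 9903 and 5785 were the high ones for all 3 genes and the mice 9822 and 9848 the low ones. The sum of the list was 304 to 1466 CPM in the SS mice, the highest being mouse 9824, 358 to 691 in the SS + RSD + minocycline, 355 to 863 in the AA and 394 to 1175 in the AA + RSD + minocycline mice. Without SS mouse 9824 the median of the list was -0.27 with 1 gene at an unadjusted p under 0.05 and the interaction of Fmod was -0.86, and without 9822 or 9848 the list had 9 or 8 such genes. Without the 4 libraries with many unmapped reads the median was -0.83 with 11, and without 5844 and 5853 the list had 3. With the meningeal level as a term of the model the interactions of Tfpi and Ranbp3l, which are no members of the list, were -0.44 and -0.50. The change in SS mice then had 43 called genes, and Tfpi and Ranbp3l, both called without the term, were not among them. In the cortex the same 21 genes had a median of -0.03 with 0 at that p.

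**Figure D5:**
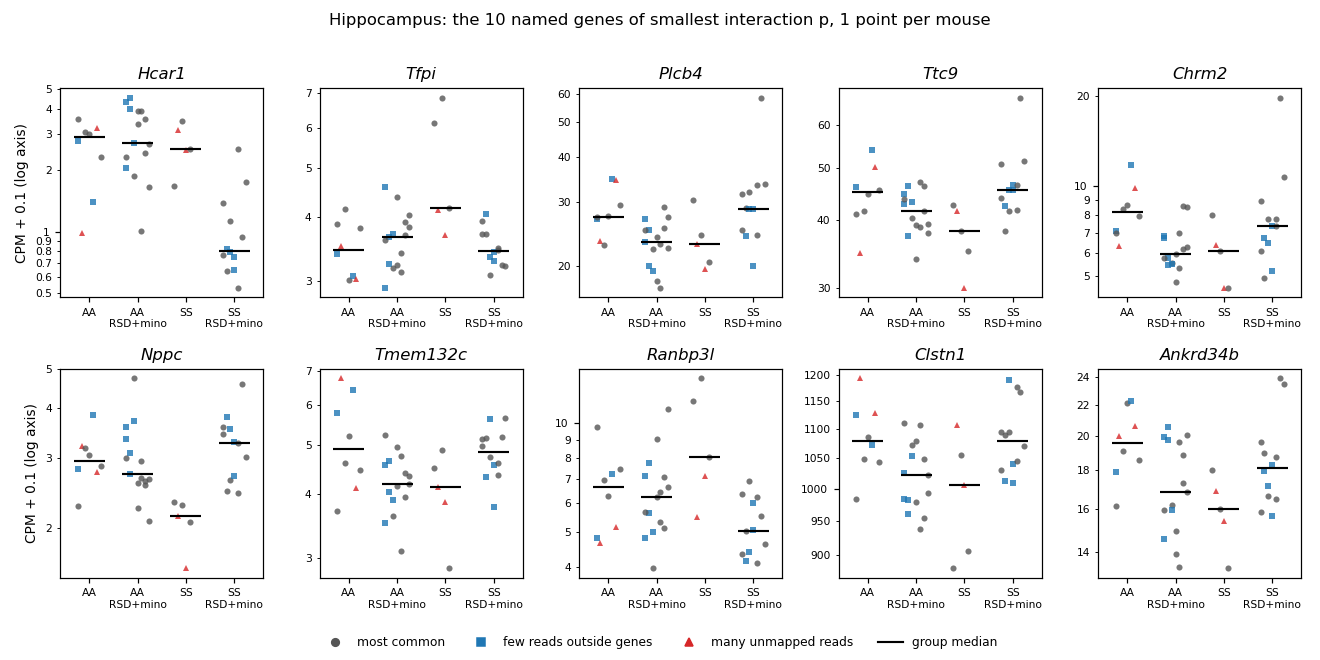
CPM (log axis, with 0.1 added) of the hippocampus genes named by rank, with 1 point per mouse, a line at each group's median and colour and shape for the kind of library. The 5 SS mice lie above most SS + RSD + minocycline mice for Hcar1, Tfpi and Ranbp3l and below all of them for Nppc.

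The other hippocampal genes named by rank had positive interactions. Nppc, the precursor of C-type natriuretic peptide, was at 2.05, 1.49, 2.19, 1.98 and 2.22 CPM in the SS mice and at 2.35 to 4.50 CPM in the SS + RSD + minocycline mice, and these 2 groups did not overlap. The AA mice ranged from 2.17 to 3.75 CPM and the AA + RSD + minocycline mice from 1.99 to 4.65, which overlap. The interaction was 0.67 (SE 0.20, adjusted p = 1.00), and Nppc was called higher in the change of SS mice alone, by 0.66 (adjusted p = 0.0311), though not with the number range as a term. That SS was called and AA was not does not show a genotype difference, since the interaction missed the threshold.

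Chrm2, the M2 muscarinic acetylcholine receptor, had an interaction of 0.90 (SE 0.27, adjusted p = 1.00). It was at 6.27, 4.49, 5.96, 4.49 and 7.91 CPM in the SS mice and at 4.86 to 19.7 CPM in the SS + RSD + minocycline mice, with mouse 9810 far above the next at 10.6. Plcb4, a phospholipase C, had 0.67 (SE 0.20), and its highest library was also mouse 9810, at 58.3 CPM against 33.6 in the next. Ttc9 had 0.43 (SE 0.13), again with mouse 9810 highest at 67.1 CPM. Tmem132c had 0.55 (SE 0.17), Ankrd34b had 0.41 (SE 0.14) and Clstn1, the synaptic membrane protein calsyntenin, had 0.22 (SE 0.07), each with an adjusted p of 1.00. Among mice numbered 5645 to 5900 alone, with a single SS mouse, the interaction of Chrm2 was 0.00 and that of Plcb4 was -0.04.

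Myelin and interneuron genes had mostly positive values too. Of 20 myelin and oligodendrocyte genes, 19 had a positive hippocampal interaction, with a median of 0.30 and 3 at an unadjusted p under 0.05, against the 1.99% of all genes that were positive at that p. Without SS mouse 9822, or without 9903, 0 genes of the list had such a p, and without 9848 there was 1 and without 5785 there were 2. Mobp, a structural protein of myelin, had 0.61 (SE 0.29), and Cldn11, the tight junction protein of the myelin sheath, had 0.48 (SE 0.23). Mobp was at 461 to 600.0 CPM in the SS mice (median 506) and at 399 to 1370 CPM in the SS + RSD + minocycline mice (median 911). It was at 479 to 1400 CPM in the AA mice (median 672) and at 441 to 1264 CPM in the AA + RSD + minocycline mice (median 790). The SS controls thus had the lowest median and the narrowest range, and they overlapped each of the other groups. Of 17 interneuron markers 15 were positive, with a median of 0.27 and 2 at an unadjusted p under 0.05. The latter were Slc32a1, the vesicular GABA transporter, at 0.39 (SE 0.14), and Gad2, a GABA-synthesizing enzyme, at 0.26 (SE 0.10). Gad2 was at 108 to 143 CPM in the SS and 130 to 172 CPM in the SS + RSD + minocycline mice.

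Whether the interaction itself differed between the tissues was tested on the 40 mice with both tissues, with the mouse as a block. Of 20782 genes 11 were called (0.0529%) and 903 had an unadjusted p under 0.05 (4.35%). All 11 had the larger interaction in the cortex, and 10 of them were pseudogenes, such as Gm12335 with a difference of 7.51 (SE 1.30, adjusted p = 0.0244), the last being a gene without a symbol. Without the mice that had a library with many unmapped reads 0 genes were called by the same test, with 338 at an unadjusted p under 0.05, and limma called 0 over all 40 mice, with 935. Of the striatal markers 0 were called, and 13 of 16 had an unadjusted p under 0.05 with a larger value in the cortex (median difference 1.51).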

How the data were processed

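Polyadenylated RNA of cortex and hippocampus, 81 libraries in all, was compared by group as the labels give it. The authors aligned reads to GRCm39 with STAR and deposited read counts per GENCODE gene, without normalization, for 55416 genes. Reads with several places of origin carry no gene, and summary lines that name no gene stayed out. The annotation release is not given in the sources used here. Depth ran from 16295000 to 107713000 reads on genes, and the number of mice sets the precision. Another 3 columns, of libraries without a clear group, were left out.

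From these counts, R 4.3.3 with edgeR 4.0.16 filtered genes by group (minimum count 10, minimum total 15), scaled libraries by TMM and fitted the 4 groups of a tissue with the quasi-likelihood test, as the study names edgeR. A gene is called where its p, adjusted after Benjamini and Hochberg over all genes tested, is under 0.05. Tests are two-sided, and CPM use TMM-scaled library sizes. The difference between tissues had each mouse as a block. Named genes are, per tissue, the 10 of smallest interaction p whose mean log2 CPM is 0 or more and a symbol that is no predicted gene or pseudogene, since fewer than 10 were called, and up to 3 members of smallest p per list described. Alas2, Slc4a1 and the mouse globin genes served as label checks, and Il13ra2, Mrgprf, Drd1, Drd2, Foxp1, Gm12335 and a noncoding RNA were named after their values were seen. One gene that the rule names is not reported here. Alternatives were RLE size factors, DESeq2 1.42.0, the likelihood-ratio and robust tests, no filter, all groups in 1 fit, number block or reads outside genes as a term, number blocks alone, and leaving out libraries. Nuclear copies were found by aligning the mitochondrial genome to the GRCm39 reference with blastn 2.17.0, at a minimum of 200 bases and 95% identity. Models were tested on simulated data. The number ranges, lists and tests were chosen with earlier results of these data known.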

Additional observations from a re-analysis of the deposited data

Results flagged for a closer look

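Within groups of 4 to 10 libraries, the highest or lowest library was tested for a wide gap to its nearest neighbour, as Dixon's ratio sets it, over the named genes and marker sums. Of 116 groups 16 had such a library. The limits used flag about 1 in 20 groups of independent, normally distributed values. CPM of related genes, many of them chosen by small p in these data, are not such values, so no chance rate is given. Only the AA and SS controls have that few libraries, so the groups given RSD and minocycline were not screened.

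Most of the libraries so found belong to a few mice. In the cortex the library labelled 5844, whose red cell transcripts go against its AA label, was far above the AA mice for Alas2 (99.7 CPM), Slc4a1 (10.1 CPM), Adora2a (26.6 CPM), Rgs9 (46.9 CPM), Tac1 (24.9 CPM), Cd4 (7.35 CPM) and the summed striatal markers (870 CPM). In the hippocampus the library with the same label stood out for Alas2 (56.3 CPM) and Slc4a1 (6.49 CPM). SS mouse 9903 was far above the other SS cortex libraries for Ttr (1117 CPM), Kl (31.8 CPM) and the summed choroid plexus markers (1834 CPM). In the cortex SS mouse 5854 was the low one for the pericyte gene Higd1b (3.40 CPM).

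In the hippocampus AA mouse 9836 was far above the other AA mice for the myelin genes Mobp (1400 CPM) and Cldn11 (188 CPM). SS mouse 5785 was the low one for the vesicular GABA transporter Slc32a1 (45.8 CPM). The interaction differed between the cortex and the hippocampus for 11 genes in the test of that difference, all pseudogenes or without a symbol. What these libraries share was not tested.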

How the results depend on the processing

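The interaction had 0 called genes in both tissues under each alternative that kept the quasi-likelihood test, leaving out each SS mouse in turn included (0 to 0 in each tissue). DESeq2 called 1 gene in the cortex (mt-Atp8) and 1 in the hippocampus, a gene without a symbol, and the likelihood-ratio test called 5 in the cortex, Ttr and mt-Atp8 among them. Groups within a tissue are different mice, so only the tissues could be paired: the test between them called 11 genes with the mouse as a block, 0 without this pairing, 19 without a filter on low counts, 3 without the libraries labelled 5844 and 5853, 0 without mice with a many-unmapped library and 0 with limma on differences per mouse.

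Signs turned as follows. Without the library labelled 5844 the interaction of Alas2 was -1.19 in the cortex and -1.39 in the hippocampus, and that of Slc4a1 -0.99 and -1.24. Without 5844 and 5853 it was -0.60 and -0.81 for Alas2 and -0.17 and -0.43 for Slc4a1. Among the most common libraries alone it was -1.61 and -1.99 for Alas2 and -1.89 and -1.81 for Slc4a1, and the cortex median of the mitochondrial genes was -0.0152. With the library class as a term the hippocampus gave -0.75 for Alas2 and -0.0868 for Slc4a1, and with mice 9810 to 9910 alone -0.18 for Slc4a1. With the striatal level as a term the cortex gave -0.93 for Alas2, -0.44 for Slc4a1 and -0.19 for Adora2a, which is part of that level, so that its value near 0 follows from the model. Without SS mouse 9903 the cortex gave 0.0458 for Kl and 0.16 for the choroid plexus median, and leaving out each SS mouse in turn gave a range of -1.496 to 0.0458 for Kl and of -1.496 to 0.16 for that median. It was 0.13 among mice 5645 to 5900, and in the hippocampus -2.89. With the choroid plexus level as a term it was 0.0415 and in the hippocampus -0.0011, which the model sets near 0 since the level is the sum of the same list. Mice 5645 to 5900 also gave -0.0398 for hippocampal Plcb4. The cause was not tested.

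The changes within a genotype moved more than the interaction. In the cortex the SS change had 1 called gene and 15 with DESeq2, 5 with the likelihood-ratio test, 3 without a filter and 5 with all groups in 1 fit, and the AA change had 175 and 1038 without a filter, 686 with all groups and 0 with the library class as a term. For the hippocampal SS change, 155 genes were called, and 234, 256, 632 and 557 under the same settings, 0 with the number block as a term and 4 with the library class. The AA change there had 175, and 628 without a filter, 590 with all groups and 0 with the library class or the choroid plexus level as a term.

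The settings on library class, striatal, choroid plexus or meningeal level, many unmapped reads and mouse 9812 were chosen after seeing the data. With 6 and 5 SS controls, 1 library can set a value, and rare transcripts such as Ch25h and C3 rest on few reads.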

Other observations

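Further groups of genes are given by their medians, and single members lay farther from 0. The 9 heme synthesis genes had a median of 0.03 in the cortex with 0 at an unadjusted p under 0.05, and of -0.07 in the hippocampus with 1, negative. The 14 genes of the red cell membrane had medians of 0.24 and 0.29, with members from -0.24 to 2.16 in the cortex and from -0.49 to 1.29 in the hippocampus. For Alas2 the library labelled 5844 stands at the SS level in both tissues. The one labelled 5853 does so in the hippocampus and lies just under that level in the cortex. For 9 MHC class II genes, all positive in the cortex, the median was 0.27 with 0 at an unadjusted p under 0.05, and in the hippocampus it was -0.02 with 0. The 18 astrocyte genes tested in the cortex were all positive as well, with a median of 0.17 and 0 at an unadjusted p under 0.05.

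Nuclear genes of respiratory complex I had median interactions of 0.07 (cortex) and 0.00 (hippocampus) over 37 genes, with 0 at an unadjusted p under 0.05 in either. Their median change was 0.29 and 0.35 in SS mice and 0.22 and 0.34 in AA mice, with 0 called in either genotype. The 19 circadian clock genes had medians of -0.09 and 0.10, the 20 cholesterol synthesis genes -0.04 and -0.03, and the 25 heat shock and unfolded protein genes 0.03 and 0.00. Of 20 genes of neurogenesis and proliferation in the hippocampus, 14 were positive, with a median of 0.13 and a range from -0.23 to 2.51, and 3 had an unadjusted p under 0.05, all positive, against 1.99% of all genes.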
